A study of Mus musculus with 2 samples.

Results

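The 44 genes described here encode the machinery that copies chromosomal DNA and supplies its nucleotides. They were chosen by name, from the origin recognition complex to thymidylate synthase, and all 44 were found among 21887 protein-coding genes. The data are 2 lists of islands from chromatin immunoprecipitation and sequencing, 1 for each of the histone deacetylases Hdac1 and Hdac2. Nephron progenitors, fetal kidney cells that build the nephron's epithelium, were isolated from wild-type mouse embryos at E16.5 and cultured before crosslinking. Both immunoprecipitations used these same wild-type cells, with antibody amounts of 0.5 µg (Hdac1) and 1 µg (Hdac2) per the file labels. An island is a stretch of the mm10 genome where the caller run by the authors found an excess of reads over background. Each carries 1 number from the authors, a p-value or q-value, referred to as its value, and a lower one marks a stronger island. With 1 library per antibody there was no replicate check, no test was made. The depth of the libraries is unknown, and the 95% Wilson intervals given here hold only the error of counting genes.

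Replication starts at origins that are marked by the origin recognition complex. Cdc6 and Cdt1 load the ring of Mcm2 to Mcm7 there, and Cdc45 and the GINS proteins turn that ring into the active helicase. Most of these genes are switched on as cells enter S phase by E2F transcription factors, which in resting cells are bound by retinoblastoma family proteins that bring histone deacetylases to the promoter. Nephron progenitors in the fetal kidney are a dividing population.

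Hdac1 islands lay at nearly all DNA replication genes, whereas Hdac2 islands lay at fewer of them than at other genes with comparable Hdac1 islands. An island counted at a gene end where it came within 1 kb of the first or last annotated base. By this rule 42 of the 44 genes (95.5%, interval 84.9 to 98.7%) had Hdac1, against 60.7% of all protein-coding genes. Hdac2 was at 12 genes (27.3%, interval 16.3 to 41.8%), against 31.7% of all protein-coding genes. At all 12 the islands of both libraries overlapped. This was the rule at genes with both, holding at 6682 of 6725 protein-coding genes. Overlapping islands were thus at 27.3% of the 44 genes and at 30.5% of all genes. The other 30 had Hdac1 alone, Orc1 and Rfc1 had neither at an end, and no gene had Hdac2 alone.

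**Figure D1:**
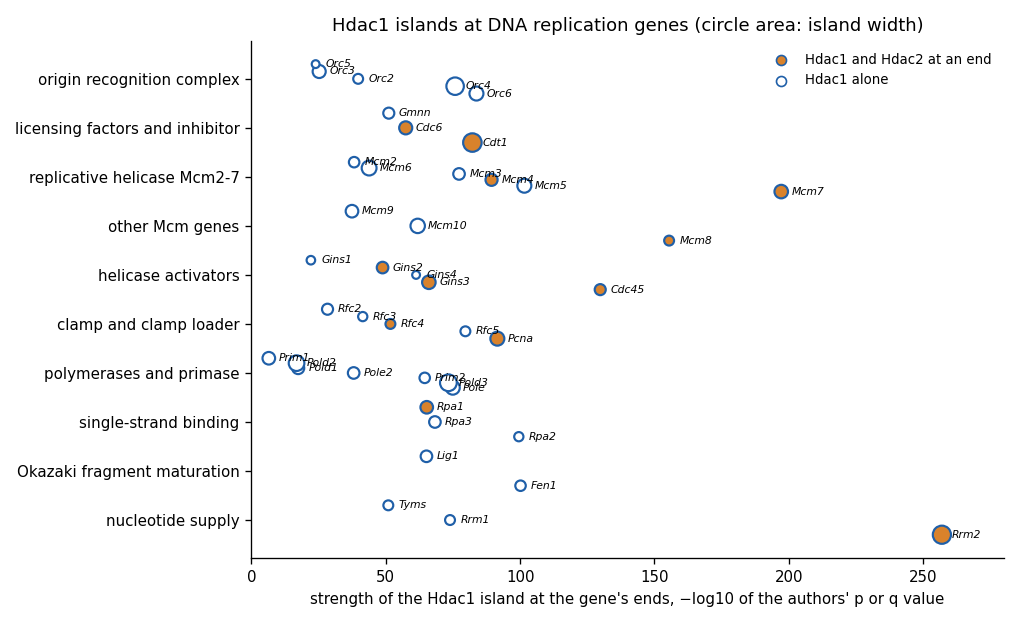
The 42 DNA replication genes with an Hdac1 island at an end, by role (rows) and by the −log10 of the authors' value of that island (x axis), with circle area showing island width. Filled circles have an Hdac2 island at an end as well; Rrm2 and Mcm7 lie farthest to the right, and no polymerase or primase gene is filled.

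Both libraries had islands over Rrm2, Mcm7 and Mcm8, the members with the lowest Hdac1 values. Rrm2 encodes the small subunit of ribonucleotide reductase, the enzyme that makes deoxynucleotides. Its Hdac1 island of 5.4 kb spanned 24706201 to 24711600 on chromosome 12 with a value of 1.09e-257, and its Hdac2 island of 3.6 kb lay wholly within it with a value of 1.4e-12. These were the lowest values among the members in either library. At Mcm7, a subunit of the helicase ring, the Hdac1 island of 3.0 kb (6.64e-198, chromosome 5, 138170001 to 138173000) and the Hdac2 island of 3.0 kb (2.34e-08) shared 2400 bp. At Mcm8, whose product acts with Mcm9 in recombination, the Hdac1 island was 1.6 kb wide (3.51e-156) and the Hdac2 island 2.0 kb (3.35e-10).

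Within the origin recognition complex, the 6 genes whose products mark origins, Hdac1 lay at the ends of 5 and Hdac2 at the end of none. Among the islands at these ends, Orc6 had the lowest Hdac1 value, with 3.2 kb and 1.75e-84, and Orc4 the widest island, with 5.0 kb and 1.5e-76. The islands at Orc2 (1.6 kb, 1.82e-40), Orc3 (2.8 kb, 5.78e-26) and Orc5 (1.0 kb, 1.21e-24) had higher values. Hdac2 islands lay inside 3 of these genes, Orc1, Orc4 and Orc5, away from their ends. Within Orc1, an Hdac1 island of 2.0 kb (4.48e-115, chromosome 4, 108578201 to 108580200) contained an Hdac2 island of 1.0 kb (1.78e-06). Within Orc4, an Hdac2 island of 2.2 kb (3.15e-08) lay inside the 5.0 kb Hdac1 island, 2.3 kb from the gene end. The Hdac2 islands inside Orc5 (1.4 kb, 6.89e-09 and 3.0 kb, 1.94e-09) overlapped no Hdac1 island.

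Of the licensing factors, Cdt1, which brings the helicase ring to origins, had an Hdac1 island of 5.6 kb (5.7e-83), the widest of the members. The Hdac2 island inside it measured 1.2 kb (0.000105) and covered 21.4% of its length. Cdc6, the loading ATPase, had Hdac1 at both ends, with 2.8 kb (3.67e-58) at the start and 2.2 kb (2.74e-11) at the far end. Its Hdac2 island of 1.8 kb (0.000658) was at the far end only, from 98922401 to 98924200 on chromosome 11, so no Hdac2 island lay at the Cdc6 start site. Gmnn, the gene of the Cdt1 inhibitor geminin, had Hdac1 alone (2.0 kb, 7.26e-52).

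All 6 genes of the helicase ring had Hdac1, with widths of 1.8 to 3.6 kb, and Mcm4 and Mcm7 had Hdac2. At Mcm4 the Hdac1 island was 2.4 kb wide (4.17e-90) and the Hdac2 island 4.6 kb (0.000318), and the Hdac1 island also lay at an end of Prkdc, which encodes the DNA repair kinase DNA-PK. Mcm5 had a lower Hdac1 value (3.2 kb, 2.63e-102) than Mcm4 and had no Hdac2 island within 1 kb. The nearest Hdac2 island was 64.8 kb from the Hdac1 island at Mcm5 and 327 kb from that at Mcm3. Mcm2 was the closest case, with an Hdac2 island of 1.4 kb (1.64e-07) 2.42 kb beyond the gene end. That island lay inside a separate 4.0 kb Hdac1 island and not over the 1.8 kb Hdac1 island at Mcm2 (5.73e-39). Mcm10, an origin activation factor, had Hdac1 alone (3.4 kb, 1.27e-62). At Mcm9, also with Hdac1 alone at its end (2.6 kb, 3.6e-38), an Hdac2 island (2.2 kb, 1.4e-10) overlapped a further Hdac1 island (3.8 kb, 1.21e-123) inside the gene.

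The helicase activators had Hdac2 at 3 of 5 genes. At Cdc45 the Hdac1 island (2.0 kb, 1.51e-130) and the Hdac2 island (1.8 kb, 8.61e-08) began at the same base, 18811001 on chromosome 16. The GINS genes, whose products join Cdc45 on the helicase, were split. At Gins3 the Hdac1 island was 3.0 kb wide (8.86e-67) and the Hdac2 island 2.4 kb (1.67e-05). At Gins2 the Hdac1 island was 2.2 kb wide (1.5e-49) and lay wholly within an Hdac2 island of 3.8 kb (6.41e-05). Gins1 and Gins4 had narrow Hdac1 islands alone, of 1.2 kb (7.13e-23) and 1.0 kb (5.07e-62).

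Pcna, the gene of the sliding clamp that holds polymerases on DNA, had both islands over its start. The Hdac1 island (3.2 kb, 2.9e-92) and the Hdac2 island (4.0 kb, 1.96e-09) shared 2400 bp, and a second Hdac1 island of 2.4 kb (1.39e-17) lay at the other end. Among genes of the clamp loader, which opens the clamp, Rfc4 had 1.6 kb for each antibody (1.8e-52 for Hdac1 and 0.000191 for Hdac2). Rfc2, Rfc3 and Rfc5 had Hdac1 alone, with widths of 1.4 to 2.0 kb. In Rfc1, the large subunit gene, an Hdac1 island (1.4 kb, 7.71e-79) lay 2.22 kb inside the gene end and an Hdac2 island (2.4 kb, 0.000279) lay 1.22 kb inside it, both outside the window.

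None of the 7 polymerase and primase genes had Hdac2 at an end, although all 7 had Hdac1. Pold1, Pold2 and Pold3 encode subunits of polymerase delta, Pole and Pole2 of polymerase epsilon, and Prim1 and Prim2 the primase. Their Hdac1 islands were not narrow, from 1.8 kb at Prim2 to 4.6 kb at Pold3 (4.82e-74), with 4.0 kb at Pold2 (1.53e-17) and 3.2 kb at Pole (1.12e-75). Values were high at Prim1 (3.22e-07), Pold2 and Pold1 (3.81e-18), the 3 highest among the members. Inside Prim2, Hdac1 and Hdac2 islands of 3.8 kb each (2.4e-25 and 2.05e-11) overlapped, far from its ends. Among genes fixed as other replication genes, Pola1, Pola2, Pold4 and Pole3 had Hdac1 alone, and Pole4 had both (0.00379 for Hdac2). These 5 were picked out after their values were seen, so they add no support to the 0 of 7. Of all genes with Hdac1 at an end, 50.6% had Hdac2.

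In the single-strand binding complex, Rpa1, the largest subunit, had 2.6 kb for each antibody (5.5e-66 for Hdac1 and 2.98e-10 for Hdac2). Rpa2 (1.4 kb, 2.97e-100) and Rpa3 (2.2 kb, 4.94e-69) had Hdac1 alone, with no Hdac2 island within 100 kb. The enzymes that finish lagging strand fragments had Hdac1 alone: the flap endonuclease gene Fen1 with 1.8 kb (6.8e-101) and the ligase gene Lig1 with 2.2 kb (7.03e-66). So did the nucleotide genes Rrm1, the large subunit partner of Rrm2, with 1.6 kb (1.19e-74), and Tyms, thymidylate synthase, with 1.6 kb (1.09e-51). Rrm1, Mcm3 and Orc6 also had no Hdac2 island within 100 kb, which makes 5 such members. Such absence was no more common than elsewhere, as 88.6% of members and 85.5% of all genes had Hdac2 within 100 kb.

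RefSeq start sites, available for 36 of the 44 genes (not for Gins1, Gins2, Gins4, Gmnn, Mcm4, Pole, Prim2 and Rfc2), placed the islands at promoters. All 36 genes had an Hdac1 island within 1 kb of the start site nearest to the gene's outer end, against 60.3% of 17492 protein-coding genes with a start site. Hdac2 was there at 12 of 36 (33.3%), against 30.9% of those genes. The change of rule added Orc1, Orc4 and Rfc1, whose start sites lay 3.75 kb, 2.67 kb and 2.98 kb inside the annotated span, and removed Cdc6. With gene ends kept for the 8 genes without a start site, all 44 had Hdac1 and 14 had Hdac2. The polymerase and primase genes remained at 0 of 7, and the origin recognition complex stood at 2 of 6.

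**Figure D2:**
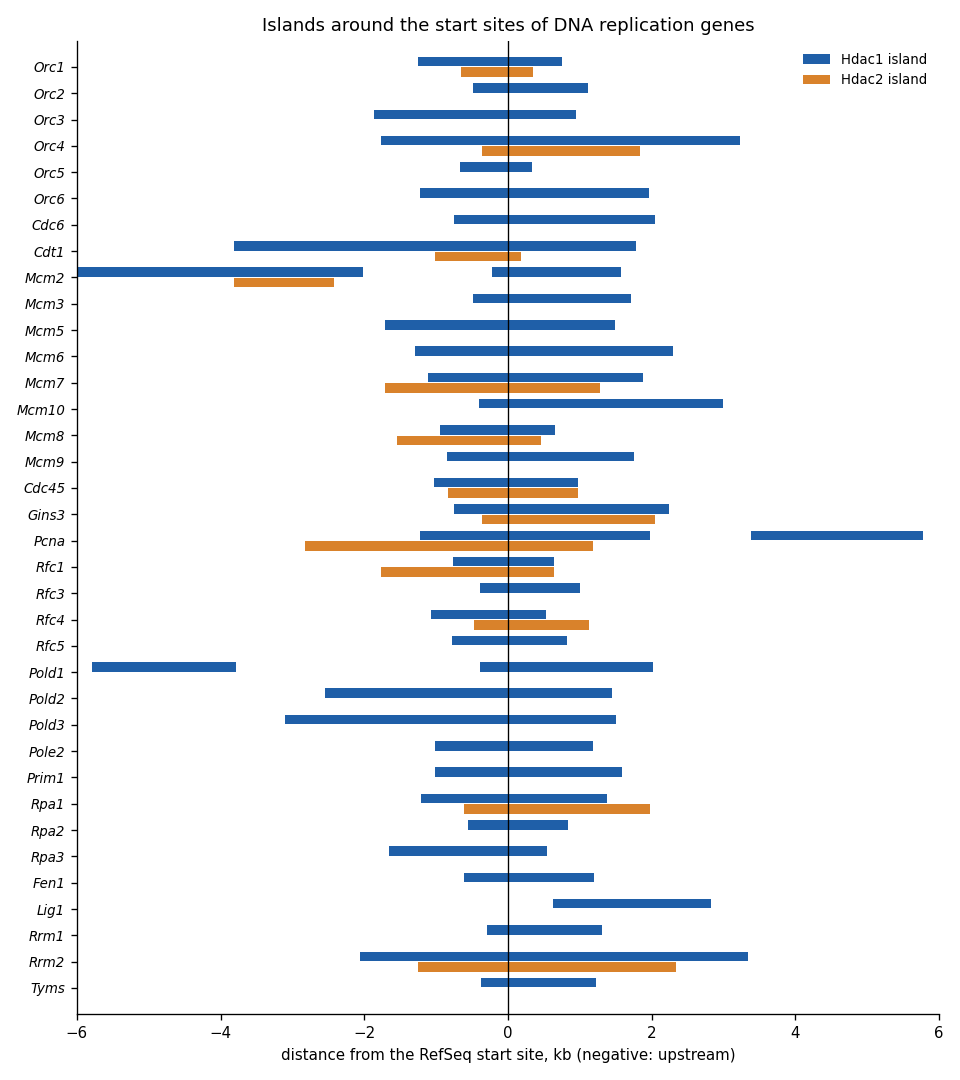
Hdac1 islands (upper bar of each row) and Hdac2 islands (lower bar) within 6 kb of the start site of the 36 genes that have one; the x axis is distance in kb, negative upstream. Hdac1 bars cross the start site at every gene but Lig1, and Hdac2 bars cross it at 12.

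The Hdac1 islands covered the start site at 35 of the 36 genes and reached a median of 1.01 kb upstream and 1.46 kb downstream. Over all protein-coding genes with a covering island the medians were 0.896 kb and 1.31 kb. The exception, Lig1, has start sites farther in, and its island began 0.626 kb inside the outermost. The Hdac2 islands covered the start site at all 12 genes, with medians of 0.921 kb upstream and 1.15 kb downstream, against 0.964 kb and 1.26 kb over all genes. At the start site itself 97.2% of the replication genes were covered by Hdac1 and 33.3% by Hdac2, against 58.5% and 29.7% of all genes.

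**Figure D3:**
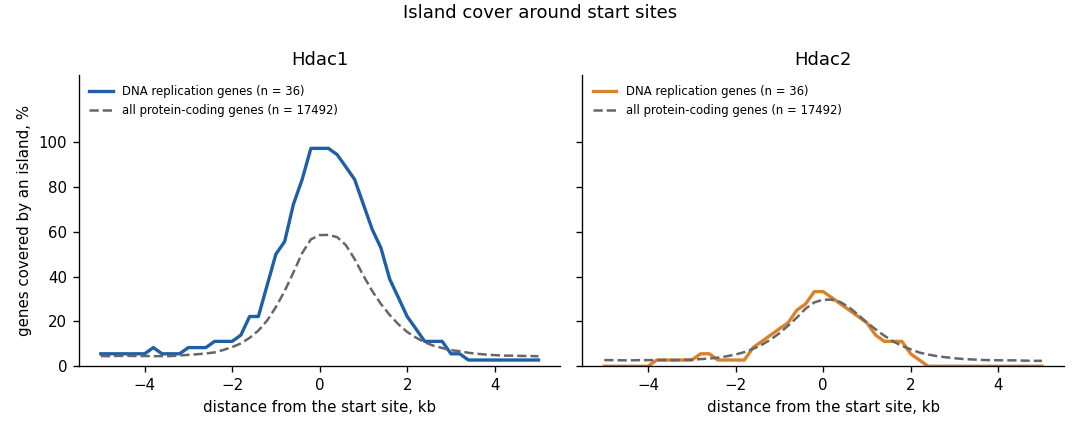
Share of genes covered by an Hdac1 island (left) or Hdac2 island (right) at each distance from the start site, in kb, for 36 DNA replication genes (solid) and 17492 protein-coding genes (dashed). At the start site the solid line reaches 97.2% for Hdac1, against 58.5% for the dashed line, while for Hdac2 the lines lie at 33.3% and 29.7%.

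The promoters below belong to genes chosen by their islands, for the reason given with each set. They were searched for the letters that E2F and NF-Y, a CCAAT-binding factor active at cell cycle genes, recognise. Each runs from 250 bases before to 50 bases after the start site, 5′ to 3′, taken from RefSeq for GRCm38.p6. Capitals mark the E2F letters TTTCCCGC, TTTGGCGC or TTTCGCGC and the NF-Y letters CCAAT, on either strand. Rrm2, Rpa1 and Mcm8 had the lowest Hdac2 values at a gene end among members with a promoter sequence.

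Rrm2 (chr12:24708004-24708303, plus strand): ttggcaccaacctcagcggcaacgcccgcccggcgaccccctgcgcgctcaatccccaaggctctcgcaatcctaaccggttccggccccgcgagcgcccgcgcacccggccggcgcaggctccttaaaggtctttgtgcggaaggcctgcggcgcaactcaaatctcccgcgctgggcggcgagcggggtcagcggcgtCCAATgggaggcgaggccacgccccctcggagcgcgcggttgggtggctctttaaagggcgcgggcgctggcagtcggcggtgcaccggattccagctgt

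Rpa1 (chr11:75348334-75348633, minus strand): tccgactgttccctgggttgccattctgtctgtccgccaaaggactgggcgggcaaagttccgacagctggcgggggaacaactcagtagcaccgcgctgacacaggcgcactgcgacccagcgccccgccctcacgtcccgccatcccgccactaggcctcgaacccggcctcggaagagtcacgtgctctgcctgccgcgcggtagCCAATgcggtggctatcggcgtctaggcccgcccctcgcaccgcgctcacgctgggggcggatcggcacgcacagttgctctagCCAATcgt

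Mcm8 (chr2:132815891-132816190, plus strand): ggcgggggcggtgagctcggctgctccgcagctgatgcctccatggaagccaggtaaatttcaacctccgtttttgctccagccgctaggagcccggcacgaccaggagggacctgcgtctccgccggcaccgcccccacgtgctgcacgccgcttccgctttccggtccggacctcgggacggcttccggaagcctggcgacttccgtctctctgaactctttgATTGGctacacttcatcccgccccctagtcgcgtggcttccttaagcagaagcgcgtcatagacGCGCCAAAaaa

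Mcm5 and Fen1 had the lowest Hdac1 values at a gene end among members with Hdac1 alone.

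Mcm5 (chr8:75109259-75109558, plus strand): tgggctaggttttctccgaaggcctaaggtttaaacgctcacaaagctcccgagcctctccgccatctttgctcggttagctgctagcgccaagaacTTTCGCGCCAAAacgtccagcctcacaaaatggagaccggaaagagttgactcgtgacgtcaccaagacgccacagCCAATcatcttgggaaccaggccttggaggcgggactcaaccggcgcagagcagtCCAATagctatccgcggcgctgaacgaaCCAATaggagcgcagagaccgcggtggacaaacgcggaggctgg

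Fen1 (chr19:10204344-10204643, minus strand): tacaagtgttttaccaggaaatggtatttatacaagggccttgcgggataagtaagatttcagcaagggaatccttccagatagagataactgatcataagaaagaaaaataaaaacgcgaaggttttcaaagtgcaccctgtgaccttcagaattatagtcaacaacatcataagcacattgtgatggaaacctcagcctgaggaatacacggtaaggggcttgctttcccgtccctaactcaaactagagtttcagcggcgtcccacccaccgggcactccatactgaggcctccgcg

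Rfc1 and Orc1 had no island at a gene end but have islands of both libraries over these promoters.

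Rfc1 (chr5:65335590-65335889, minus strand): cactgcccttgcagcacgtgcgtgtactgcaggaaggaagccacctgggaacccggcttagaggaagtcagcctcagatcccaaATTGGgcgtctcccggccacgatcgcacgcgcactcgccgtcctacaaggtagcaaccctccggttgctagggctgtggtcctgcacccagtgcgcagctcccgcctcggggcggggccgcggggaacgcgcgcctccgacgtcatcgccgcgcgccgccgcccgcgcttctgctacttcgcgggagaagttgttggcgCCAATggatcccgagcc

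Orc1 (chr4:108579204-108579503, plus strand): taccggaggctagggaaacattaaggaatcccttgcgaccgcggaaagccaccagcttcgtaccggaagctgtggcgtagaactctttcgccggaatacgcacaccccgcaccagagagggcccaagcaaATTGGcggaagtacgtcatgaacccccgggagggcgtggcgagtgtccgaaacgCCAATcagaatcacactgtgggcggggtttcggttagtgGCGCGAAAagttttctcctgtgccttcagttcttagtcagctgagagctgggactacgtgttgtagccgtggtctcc

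The Mcm5 promoter held 2 E2F matches that share letters within 1 run, and 3 CCAAT matches, without any Hdac2 island, and Orc1 had 1 and 2 with both islands. Rrm2, with the lowest values in both libraries, held no E2F match and 1 CCAAT match in this window. Fen1, which has a further start site inside the gene, held neither.

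E2F letters were found in 14 of the 36 replication promoters (38.9%), against 2.49% of 17492 protein-coding promoters and 3.62% of those at genes with Hdac1. CCAAT was found in 24 (66.7%), against 39.2% and 39.1%. The Sp letters GGGCGG were in 26 (72.2%), against 46.3% and 66.3%, and the cell cycle homology letters TTTGAA or TTCGAA in 6 (16.7%), against 18.2% and 13.3%. Each family was counted on its own, and matches of 1 family could share letters, as in Mcm5. E2F letters were in 5 of 12 promoters with Hdac2 at the start site (Cdt1, Gins3, Mcm7, Mcm8 and Orc1) and in 9 of 24 with Hdac1 alone, among them Mcm3, Mcm5, Mcm6 and Cdc6. GGGCGG was in 12 of 12 promoters with Hdac2 and in 14 of 24 with Hdac1 alone. Motif shares over all genes split by Hdac2 were not computed, so these splits cannot be called particular to replication genes. Over all genes with a start site, median promoter GC content was 64.7% with both antibodies and 59.7% with Hdac1 alone. CpG pairs numbered a median of 28 in the promoters with Hdac2 and 20 in those with Hdac1 alone. Over all genes with a start site the medians were 25 with both antibodies and 19 with Hdac1 alone.

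**Figure D4:**
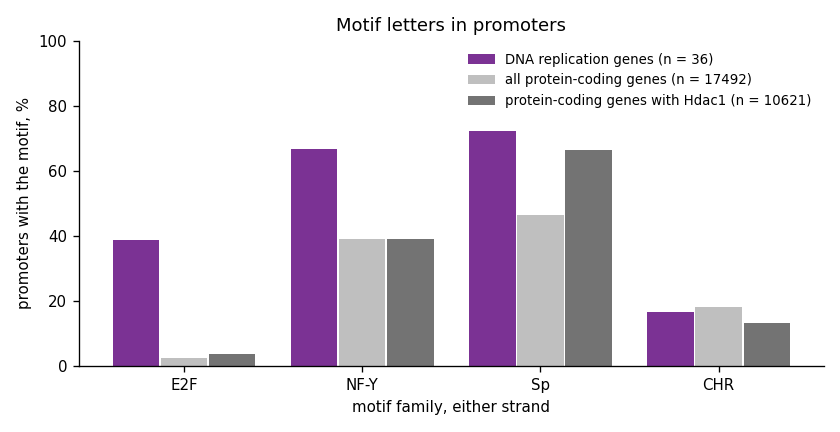
Share of promoters, in percent, with the letters of each motif family on either strand, for 36 DNA replication genes, 17492 protein-coding genes and the 10621 of these with an Hdac1 island at a gene end. The E2F bar stands at 38.9% for replication genes, against 2.49% and 3.62%.

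Replication genes were then set beside other genes with Hdac1 islands of like width. Wider Hdac1 islands had Hdac2 more often throughout the genome, from 16.9% of genes in the narrowest of 10 width classes to 84.5% in the widest. The median Hdac1 island was 2.2 kb wide at replication genes (quartiles 1.65 and 3.15 kb), against 2.4 kb at all genes with Hdac1 (quartiles 1.6 and 3.4 kb). Of the 42 genes 12 had Hdac2 (28.6%, interval 17.2 to 43.6%), while other genes in the same width classes had it in 50.2%, close to the 50.6% of all genes with Hdac1. Like width would have given 21.1 genes. The difference was -21.6 percentage points (replication genes minus genes of like width). By role, the polymerase and primase genes had 0 with Hdac2, against 4.14 for like width, the origin recognition complex 0 against 2.63, and Mcm2 to Mcm7 2 against 3.4. The helicase activators went the other way, with 3 against 1.88. Licensing genes (2 against 1.89), the clamp and its loader (2 against 1.99), single-strand binding (1 against 1.32), nucleotide supply (1 against 1.42) and the other Mcm genes (1 against 1.54) differed by less than 1 gene, as did Fen1 and Lig1 together (0 against 0.871). The 0 for the origin recognition complex holds at gene ends only. By start sites Orc1 and Orc4 had Hdac2 (2 of 6 genes), and at Orc4 it lay inside the Hdac1 island matched here. Other role counts also depend on the rule. By start sites, or gene ends where none was known, licensing genes stood at 1 of 3 and the clamp and its loader at 3 of 6. At Cdc6 the Hdac2 island lay at the far end, away from the Hdac1 island matched here. The role counts are small and were not tested. The gap varied between the 10 classes, each with few members. In the 3.2 to 3.6 kb class only Pcna of 6 had Hdac2, against 70.5% of other genes, and Mcm5, Mcm6, Mcm10, Orc6 and Pole did not. In the 1.4 to 1.6 kb class 2 of 8 had it, against 28.7%. Only in the 2.8 to 3 kb class was the share higher, with 3 of 4 against 62.5%.

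**Figure D5:**
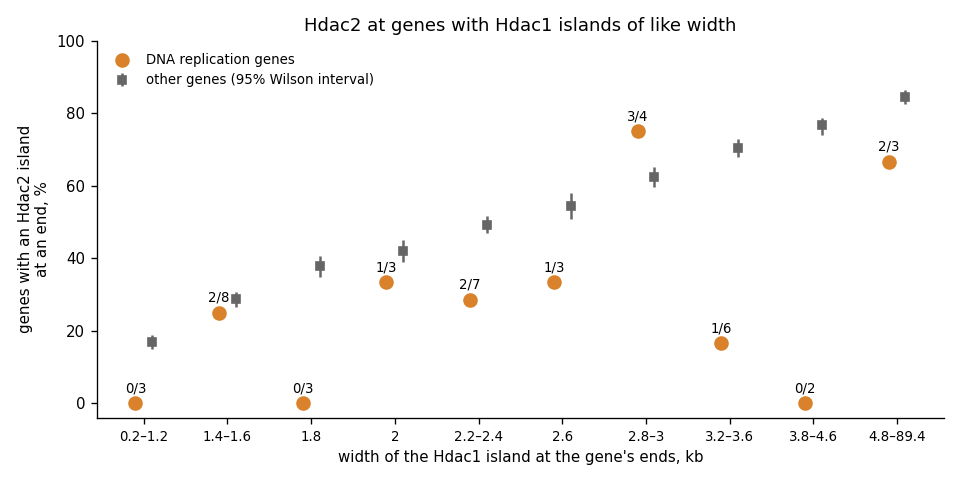
Share of genes with an Hdac2 island at an end, in percent, by width of the Hdac1 island in kb, for DNA replication genes (circles, with counts) and other genes (squares, 95% Wilson intervals). The replication genes lie below the other genes in every class except 2.8 to 3 kb, where 3 of 4 had Hdac2.

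At the start site the difference was -18.1 points, with 33.3% (interval 20.2 to 49.7%) for replication genes and 51.4% for genes of like width. When CpG pairs in the promoter were matched as well, genes of like width had Hdac2 in 49.0%, within that interval. The like-width share was also within the interval for a 5 kb window, at 56.0% against 43.2% (interval 29.7 to 57.8%) of replication genes. The 7 members gained by that window were Orc1, Orc4, Rfc1, Mcm2, Pole2 (3.17 kb from the gene end), Gins1 (3.96 kb) and Prim1 (4.57 kb). Just inside the 1 kb window were the Hdac1 islands at Lig1 (0.626 kb) and Orc4 (0.902 kb), and just outside it the Hdac2 island at Rfc1 (1.22 kb).

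The 12 Hdac2 islands at the ends of replication genes ranked low within the Hdac2 list. Their median value was 8.4e-06, against 2.1e-08 over all genes with Hdac2, and their median width was 2.5 kb against 2.4 kb. There were 4 in the stronger 50% of the list, at Rrm2, Rpa1, Mcm8 and Pcna, where 49.7% of all genes with Hdac2 had theirs, and none in the strongest 10%, which held 14.0% of all genes with Hdac2. The Hdac2 median depends on the rule. The 12 islands at start sites include Orc1 (1.78e-06), Orc4 (3.15e-08) and Rfc1 (0.000279), and leave out Cdc6, Gins2 and Mcm4. Their middle values were 3.15e-08 (Orc4) and 8.61e-08 (Cdc45), much nearer to the value over all genes. The Hdac1 islands at gene ends had a median value of 1.89e-65, against 6.2e-51 over all genes with Hdac1. Of the 42, 41 were in the stronger 50% of that list (86.6% of all genes with Hdac1) and 10 in the strongest 10% (25.6%). Replication genes with Hdac2 had Hdac1 islands with a median of 2.7 kb and 2.85e-83, and those with Hdac1 alone 2.2 kb and 3.63e-52. These values rank islands within a list and depend on depth, so they do not compare binding between the antibodies.

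Several of these islands lay at the ends of a neighbouring gene as well. That was so for 15 of the 42 Hdac1 islands (35.7%), against 30.1% of all genes with Hdac1. The 6 with Hdac2 among them were at Mcm4, Mcm7 (with Ap4m1), Mcm8 (with Trmt6), Cdc45 (with Ufd1), Pcna (with Cds2) and Rpa1 (with Smyd4). The 27 unshared islands also included 6 with Hdac2 (22.2%), while genes of like width with unshared islands had Hdac2 in 48.0%. Which gene of a pair an island belongs to cannot be told apart.

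In gene bodies and within 100 kb, the Hdac2 shares of replication genes lay slightly above those of all genes and below those of genes with Hdac1 at an end. An Hdac1 island touched the body of all 44, against 65.5% of all genes, and an Hdac2 island that of 18 (40.9%), against 38.4% of all genes and 55.4% of genes with Hdac1. The 6 with Hdac2 in the body and none at an end were Orc1, Orc4, Orc5, Mcm9, Rfc1 and Prim2. At Orc1, Orc4 and Rfc1 that island covered the start site. The share of all genes with Hdac2 in the body and none at an end was not computed. Within 100 kb all 44 had Hdac1, against 85.4% of all genes, and 39 had Hdac2 (88.6%), against 85.5% of all genes and 92.8% of genes with Hdac1. The median number of islands within 100 kb was 5 for Hdac1 and 2 for Hdac2, the same as over all genes. From the Hdac1 island of the 30 genes with Hdac1 alone, the nearest Hdac2 island was a median of 35.2 kb away, against 41.6 kb for all genes with Hdac1 alone.

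A further list of 42 replication genes, which covers firing factors, fork protection, chromatin assembly and nucleotide enzymes, did not show the low Hdac2 share. Hdac1 was at 41 and Hdac2 at 22 (53.7% of the 41, interval 38.7 to 67.9%), against 52.9% of genes with islands of like width. The lowest Hdac2 values were at Uhrf1 (2.8 kb, 5.55e-28), which helps copy DNA methylation, Dbf4 (2.6 kb, 1.32e-12), the activator of the Cdc7 kinase, and Ticrr (3.72e-11), Clspn (1.79e-11) and Mcmbp (5.95e-11). Dnmt1, the maintenance methyltransferase, was the 1 gene without Hdac1 at an end. The difference between the 2 lists was not tested.

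Islands do not measure expression, so the cell type could be checked only by islands at marker genes. Nephron progenitor markers such as Six2 had Hdac1 at 10 of 10 and Hdac2 at 8. Stroma markers had Hdac1 at 5 of 5 and Hdac2 at 2, ureteric bud markers at 3 and 1 of 5, and endothelial and blood markers at 1 and 0 of 5. Hdac1 lay at 60.7% of all genes and at all markers of both progenitors and stroma, so Hdac1 islands did not separate these cell types. Hdac2 lay at 31.7% of all genes. The median Hdac1 island was 8.9 kb wide at progenitor markers and 5.0 kb at stroma markers. In the class of 4.8 to 89.4 kb, 84.5% of genes other than replication genes had Hdac2. The Hdac2 counts at markers were not matched for width and do not identify the cell type. The shares of cells in each phase of the cell cycle were not measured here.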

How the data were processed

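Islands from 1 Hdac1 and 1 Hdac2 library were analysed. The labels' protocols give 500 pg of DNA per library, and 12 amplification cycles plus 1 to 3 more, so reads are not independent molecules. The submitters' processing notes name SICER, BWA 0.7.5a, FastQC, bedtools 2.17 and SAMtools 1.3.1, and build mm10. Not given in the sources used here are the settings, background library, depth and pooling. Deposited were lists of 30182 Hdac1 and 20307 Hdac2 islands, each with a deposited p-value or q-value (which of these is not stated). Control immunoprecipitations with IgG and H3K4me3 antibody are not analysed here. Island positions in the files count from 0 and are given 1-based.

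Gene spans came from RefSeq for GRCm38.p6, the assembly of mm10, which gives no strand in the gene table. Start sites and strands came from the RefSeq promoter table, 1 site per gene. Of several islands at a gene's ends, that of lowest value stood for the gene. Genes of like width are other protein-coding genes in the same of 10 classes of Hdac1 island width, and their Hdac2 share was averaged over the members. Motif letters were searched on both strands. Members, lists and rules were chosen with earlier results of these data known. All 44 members may be named, with neighbours sharing an island, and of the other replication genes those without Hdac1 and the 5 with the lowest Hdac2 values; Pola1, Pola2, Pold4, Pole3 and Pole4 were named outside this rule, after their values were seen. Alternatives were stronger islands only, other windows, merged islands, equal list length, start sites, and other matches. The assignment of islands to gene ends and the like-width comparison were tested on simulated data. The simulated comparison had many more members than here, so it does not show the precision at this number of genes. The tools were pandas 2.3.3, numpy 2.4.6, matplotlib 3.10.9 and scipy 1.17.1 under Python 3.11.15, and overlaps were checked with bedtools 2.31.1.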

Additional observations from a re-analysis of the deposited data

How the results depend on the processing

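The Hdac2 share of replication genes lay below that of genes with like Hdac1 islands under all 15 alternatives, 3 of them chosen after seeing the data, with differences from -28.9 points (match on the authors' value) to -12.8 points (5 kb window). With the 5 kb window, and at start sites matched on width and CpG count (-15.7 points), the like-width share was within the interval of the members' share. With the upper 50% of islands, 4 genes had Hdac2 at an end. That was 9.76% of those with Hdac1, against 26.2% of genes of like width. At that setting 4 genes had overlapping islands and 7 had Hdac2 in the body. With the 5 kb window 19 genes had Hdac2 and 19 had overlapping islands. The other 43 of 48 recomputed values stayed within 1.5 times the reported count, or within the interval or spread of the reported value. No paired analysis was possible because each antibody has 1 library, and no library could be left out. Of the genes in the annotation, 108 are listed before base 3 Mb of a chromosome other than Y; leaving them out did not move the difference (-21.6 points). Depth is unknown, so an absent Hdac2 island means only that none was called.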
